A study of Mus musculus with 24 samples.

Results

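Astrocyte nuclei of the lumbar spinal cord were compared between mice challenged on a rotarod and control mice. The nuclei were those the authors' deposited annotation calls astrocytes, in the mice with at least 10 such nuclei: 662 nuclei, of 1224 astrocytes and 13425 nuclei with a cell class in the whole series. They came from 8 control mice (477 nuclei, 28 to 93 per mouse) and 5 rotarod mice (185 nuclei, 27 to 43 per mouse). All animals, of both sexes, were of the outbred ICR/CD-1 stock and 8 to 11 weeks old. Rotarod mice were habituated for 1 hour and then walked on a rod that accelerated over 5 minutes, starting at 0 and ending at 40 rotations per minute. Control mice carry the label Control and no treatment, and the labels do not say whether they were habituated. How long after the task the cords were taken is not stated. The series also holds 10 samples from mice whose hindpaws were injected with formalin, and the ninth control mouse had 6 astrocyte nuclei and was left out. The source is entered as brain, but the lumbar cord was what was dissected, without its dorsal root ganglia. Nuclei were profiled by Drop-seq, a droplet method in which each captured transcript carries a unique molecular identifier (UMI).

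Astrocytes take up glutamate and GABA after synaptic release, buffer extracellular potassium and move water through aquaporin channels at their endfeet. They also express receptors for circulating glucocorticoids, hormones released during stress and exertion, and a set of genes follows those hormones. In nuclei, unspliced and nuclear transcripts weigh more than in whole cells.

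The summed astrocyte UMIs ran from 31555 to 157158 per control mouse and from 23425 to 100944 per rotarod mouse, 748655 and 256189 in all. Values are given as CPM, the UMIs of a gene scaled to 1e+06 UMIs of the same mouse's astrocyte nuclei. The class label matched its markers: over all 13 mice the 16 astrocyte markers together reached 20047 CPM in these nuclei, against 1724 CPM in oligodendrocytes and 1563 CPM in neurons. Neuronal markers were also present, at 8654 CPM against 46011 CPM in neurons, and oligodendrocyte markers stood at 3816 CPM against 26308 CPM in oligodendrocytes. No cell barcode was shared between libraries among the astrocyte nuclei of control and rotarod mice. Xist was over 1000 CPM in 5 of 8 control and 2 of 5 rotarod mice and at 0 UMIs in the other mice, so both sexes were present in both groups. No label says which mice were handled on the same day, so p-values measure the spread between these samples, each taken as 1 mouse.

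Few genes separated the groups. Of 1332 genes with enough UMIs to test, 5 rose and 1 fell in astrocytes of rotarod mice at an adjusted p under 0.05, by edgeR's quasi-likelihood test with the mouse as the replicate. Dok5, Stxbp3, Snx9, Hif3a and Atg4a rose between 2.46-fold and 3.92-fold in mean CPM, and Ccnl2 fell to 0.294 of its control mean. The called genes made up 0.45% of those tested, 0.375% for genes that rose and 0.0751% for genes that fell, and 118 genes had an unadjusted p under 0.05. Across all genes tested the median log2 fold change was -0.015, with 637 above and 695 below 0. The filter asked for about 148 CPM in at least 5 mice, the size of the smaller group. All 5 rotarod mice reached it for Dok5, Stxbp3, Snx9 and Hif3a, with 3, 1, 0 and 1 of 8 control mice, and 7 control mice and no rotarod mouse reached it for Ccnl2. These 5 genes thus entered the test only through the group where they are high, and their number among the genes tested is no support for a difference; Atg4a reached the level in 6 control mice as well. With genes chosen instead by a mean over all 13 mice of at least that level, 1177 were tested. The 5 that passed were the same genes without Ccnl2, whose mean was under it. That mean also takes in the group where a gene is high. The control means of Dok5, Stxbp3, Snx9 and Hif3a lay under the level, so their passing is again no support for a difference. With no filter on low counts 2 of 18361 genes passed, Atg4a and Hbb-bt, and when controls titled with a final cx (replicates 7 and 8 here) were left out 4 of 1247 passed, with Ccnl2, Dok5 and Stxbp3 among them. No gene passed in all 13 fits that left out 1 mouse.

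**Figure D1:**
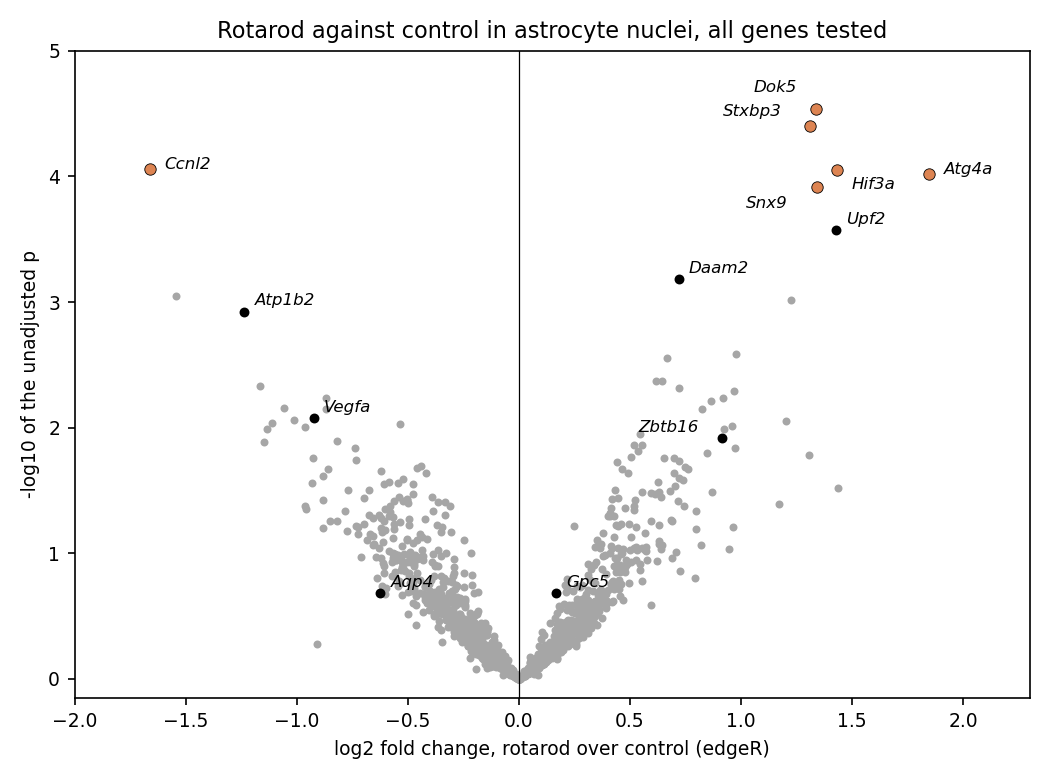
Each point is 1 of the 1332 genes tested in astrocyte nuclei, with the log2 fold change of rotarod over control mice on the x axis and the -log10 of the unadjusted p of edgeR's test on the y axis. Orange points are the 6 genes with an adjusted p under 0.05, black points are other genes named in the text, and grey points are the rest; 5 of the orange points lie on the right and Ccnl2 lies on the left.

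The promoters of the called genes are shown so that the motif counts can be read against the letters. Whether these genes share a regulator was not tested. RefSeq promoters on GRCm38.p6, 250 bases before to 50 bases after the transcript start, were found for 4 of the 6 called genes. Capitals mark any match, on either strand, to the motifs searched.
Hif3a, chr7:17062378-17062677, minus strand: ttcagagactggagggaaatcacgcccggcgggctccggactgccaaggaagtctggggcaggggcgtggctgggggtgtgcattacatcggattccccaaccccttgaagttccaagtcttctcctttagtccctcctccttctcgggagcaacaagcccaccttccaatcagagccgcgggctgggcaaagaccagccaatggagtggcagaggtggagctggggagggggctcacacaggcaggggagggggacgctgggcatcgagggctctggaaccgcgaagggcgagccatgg
Atg4a, chrX:140956657-140956956, plus strand: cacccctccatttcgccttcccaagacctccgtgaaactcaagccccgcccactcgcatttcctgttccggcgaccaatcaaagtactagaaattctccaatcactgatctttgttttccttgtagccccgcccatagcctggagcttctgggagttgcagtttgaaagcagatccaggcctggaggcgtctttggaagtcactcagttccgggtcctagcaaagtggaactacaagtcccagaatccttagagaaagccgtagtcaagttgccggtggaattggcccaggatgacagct
Stxbp3, chr3:108840453-108840752, minus strand: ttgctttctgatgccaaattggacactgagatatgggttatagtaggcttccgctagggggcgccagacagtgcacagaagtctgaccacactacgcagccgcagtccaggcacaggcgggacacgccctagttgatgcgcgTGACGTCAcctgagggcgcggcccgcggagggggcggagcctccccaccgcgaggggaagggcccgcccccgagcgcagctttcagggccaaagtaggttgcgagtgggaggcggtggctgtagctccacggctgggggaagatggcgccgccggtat
Ccnl2, chr4:155812239-155812538, plus strand: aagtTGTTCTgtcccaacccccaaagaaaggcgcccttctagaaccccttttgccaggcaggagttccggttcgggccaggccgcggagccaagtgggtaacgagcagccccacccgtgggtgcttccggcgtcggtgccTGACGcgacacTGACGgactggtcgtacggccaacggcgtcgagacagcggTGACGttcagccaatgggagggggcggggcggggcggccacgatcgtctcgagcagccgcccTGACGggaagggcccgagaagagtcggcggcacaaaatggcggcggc

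The motifs were searched on both strands. For the glucocorticoid receptor they were the short unit AGAACA and the full element, a pair of these units facing each other with 3 bases between. The others were the E-box CACGTG, the D-box TTACGTAA (or TTATGTAA), and the cyclic AMP response element TGACGTCA with its core TGACG. TGACGTCA holds the core on both strands. The Hif3a window and the Atg4a window shown held none of them. Stxbp3 held 1 TGACGTCA, at bases 143 to 150 of its window. Ccnl2 held 1 AGAACA unit on the other strand, at bases 5 to 10, and 4 TGACG. A separate RefSeq window of Atg4a, at chrX:140953595-140953894, held 1 such unit and 1 core. Over 32544 different promoter windows of the same length, 18.9% held AGAACA, 0.00922% the pair, 7.17% the E-box, 1.05% a D-box, 1.8% TGACGTCA and 20.9% the core. Dok5 and Snx9 had no promoter entry.

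Dok5, an adaptor of the DOK family that docks to receptor tyrosine kinases, was the gene with the smallest p. It stood from 69.3 to 159 CPM with a median of 136 CPM in the 8 control mice, and at 384, 449.6, 227, 228 and 401 CPM in rotarod replicates 1 to 5. All 5 rotarod mice were above all 8 control mice. The means were 338 ± 104 CPM (SD, n = 5) in rotarod and 126 ± 33.9 CPM (SD, n = 8) in control mice (log2 fold change 1.34, SE 0.28, adjusted p = 0.0253, edgeR). The values rest on 99 UMIs in 77 of 477 control nuclei and 82 UMIs in 56 of 185 rotarod nuclei. Dok5 spans chr2:170731807-170879769 on GRCm38, plus strand. With the formalin samples in the same fit Dok5 did not pass (adjusted p = 0.385, edgeR). Dok5 did not pass when any 1 of control replicates 1 or 3 or rotarod replicate 2 was left out (adjusted p from 0.0550 to 0.0805, edgeR).

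A pair of genes of membrane fusion and endocytosis rose. Stxbp3, a Sec1/Munc18 protein that binds syntaxins in vesicle fusion at the plasma membrane, stood from 76.7 to 190.1 CPM with a median of 112 CPM in the 8 control mice. It reached 213, 274, 421, 238 and 241 CPM in rotarod replicates 1 to 5, so that the groups did not overlap. The means were 277 ± 83.3 CPM (SD, n = 5) in rotarod and 113 ± 35.3 CPM (SD, n = 8) in control mice (log2 fold change 1.31, SE 0.28, adjusted p = 0.0253, edgeR). Snx9, a sorting nexin that works with dynamin in clathrin-mediated endocytosis, stood from 32.9 to 146 CPM with a median of 94.3 CPM in the 8 control mice. It reached 427, 195, 259, 277 and 201 CPM in rotarod replicates 1 to 5, again without overlap. Its means were 272 ± 93.7 CPM (SD, n = 5) in rotarod and 99.6 ± 37.1 CPM (SD, n = 8) in control mice (log2 fold change 1.34, SE 0.31, adjusted p = 0.0272, edgeR). Stxbp3 spans chr3:108793176-108840526 on the minus strand, and Snx9 chr17:5841329-5931954 on the plus strand. The annotation also holds a pseudogene of Stxbp3, Stxbp3-ps, with which the counting could split reads. Stxbp3 did not pass when any 1 of control replicates 1 or 3 or rotarod replicates 3 or 4 was left out (adjusted p from 0.0704 to 0.0903, edgeR). Snx9 did not pass when any 1 of control replicates 1, 3, 6 or 7 or rotarod replicates 1, 3 or 4 was left out (adjusted p from 0.0518 to 0.227, edgeR).

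Of 1332 genes tested, 4 had every rotarod mouse above every control mouse (0.3%) and 3 had every rotarod mouse below (0.225%). The called genes among them had entered the test through the group where they are high, so this count is a description. The 4 were Dok5, Stxbp3, Snx9 and Daam2, a formin that links Wnt signalling to actin. The 3 were Ccnl2, Camk2d and Tenm4, of which Camk2d and Tenm4 did not pass (adjusted p = 0.524 and 0.531, edgeR) and are named after their values were seen. Daam2 stood from 312 to 579 CPM with a median of 455 CPM in the 8 control mice and at 811, 684, 940.1, 634 and 723 CPM in rotarod replicates 1 to 5. It did not pass (log2 fold change 0.72, adjusted p = 0.110, edgeR). With the formalin samples in the same fit it did (adjusted p = 0.0364, edgeR), as did Upf2 (adjusted p = 0.0223). That fit called 7 of 1804 genes, and its formalin samples may hold pairs from 1 animal.

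Hif3a, a member of the hypoxia-inducible factor family that dampens the action of its relatives, is known to be induced by glucocorticoids in several tissues. It stood from 43.8 to 216 CPM with a median of 89.0 CPM in the 8 control mice, and at 299, 235, 292, 406 and 161 CPM in rotarod replicates 1 to 5. Only control replicate 2, at 216 CPM, lay within the rotarod range. The means were 278 ± 90.4 CPM (SD, n = 5) in rotarod and 95.4 ± 54.1 CPM (SD, n = 8) in control mice (log2 fold change 1.43, SE 0.32, adjusted p = 0.0253, edgeR), from 77 UMIs in rotarod and 82 UMIs in control nuclei. Rotarod replicate 4 held 41 of the 77. The astrocyte nuclei of that mouse also held 163 of the 177 rotarod UMIs of Hbb-bs, a haemoglobin chain of red blood cells, and its part in the result was not tested. Hif3a did not pass when any 1 of control replicates 1, 3, 6 or 7 or rotarod replicates 1, 3 or 4 was left out (adjusted p from 0.0518 to 0.428, edgeR). Hif3a spans chr7:17031507-17062427 on the minus strand and overlaps 4833404L02Rik on the plus strand. The counts have no stated strand, so reads of these 2 genes cannot be told apart.

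Atg4a, a protease that processes the ATG8 proteins of the autophagosome, had the largest fitted change of the 6 and the widest spread. It stood from 98.6 to 350.0 CPM with a median of 188 CPM in the 8 control mice, and at 256, 860.1, 1718, 367 and 602 CPM in rotarod replicates 1 to 5. Rotarod replicates 1 and 4 were near the control range, with control replicate 2 at 350.0 CPM above rotarod replicate 1. The means were 761 ± 583 CPM (SD, n = 5) in rotarod and 194 ± 81.0 CPM (SD, n = 8) in control mice (log2 fold change 1.85, SE 0.37, adjusted p = 0.0253, edgeR). In rotarod replicate 2 a single nucleus of 3658 UMIs held 28 of the mouse's 44 Atg4a UMIs. Without that nucleus the mouse stood at 337 CPM, and Atg4a did not pass (log2 fold change 1.61, adjusted p = 0.135, edgeR), while the other 5 genes did. Atg4a lies on the X chromosome (chrX:140956907-141164270, plus strand), and the annotation also holds a pseudogene, Atg4a-ps. The 3 rotarod mice with 0 Xist UMIs were replicates 2, 3 and 5, which held the 3 highest Atg4a levels. The 3 control mice with 0 Xist UMIs stood at 350.0, 98.6 and 222 CPM. The part of sex in the result was not tested. Atg4a did not pass when any 1 of control replicates 1, 3, 5, 6, 7 or 8 or rotarod replicate 2 was left out (adjusted p from 0.0555 to 0.0903, edgeR).

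Ccnl2, cyclin L2, a partner of splicing kinases found in nuclear speckles, was the gene that fell. It stood from 121 to 287 CPM with a median of 199.9 CPM in the 8 control mice, and at 42.7, 78.2, 64.8, 79.3 and 20.1 CPM in rotarod replicates 1 to 5. All 5 rotarod mice were below all 8 control mice. The means were 57.0 ± 25.4 CPM (SD, n = 5) in rotarod and 194 ± 51.1 CPM (SD, n = 8) in control mice (log2 fold change -1.66, SE 0.37, adjusted p = 0.0253, edgeR), from 146 UMIs in control and 16 UMIs in rotarod nuclei. Single rotarod mice thus held 1 to 8 UMIs. Ccnl2 did not pass when any 1 of rotarod replicates 1, 2, 3, 4 or 5 was left out (adjusted p from 0.0514 to 0.125, edgeR). Without control replicates 1, 3 or 6 it fell under the filter. Ccnl2 spans chr4:155812489-155824543 on the plus strand.

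**Figure D2:**
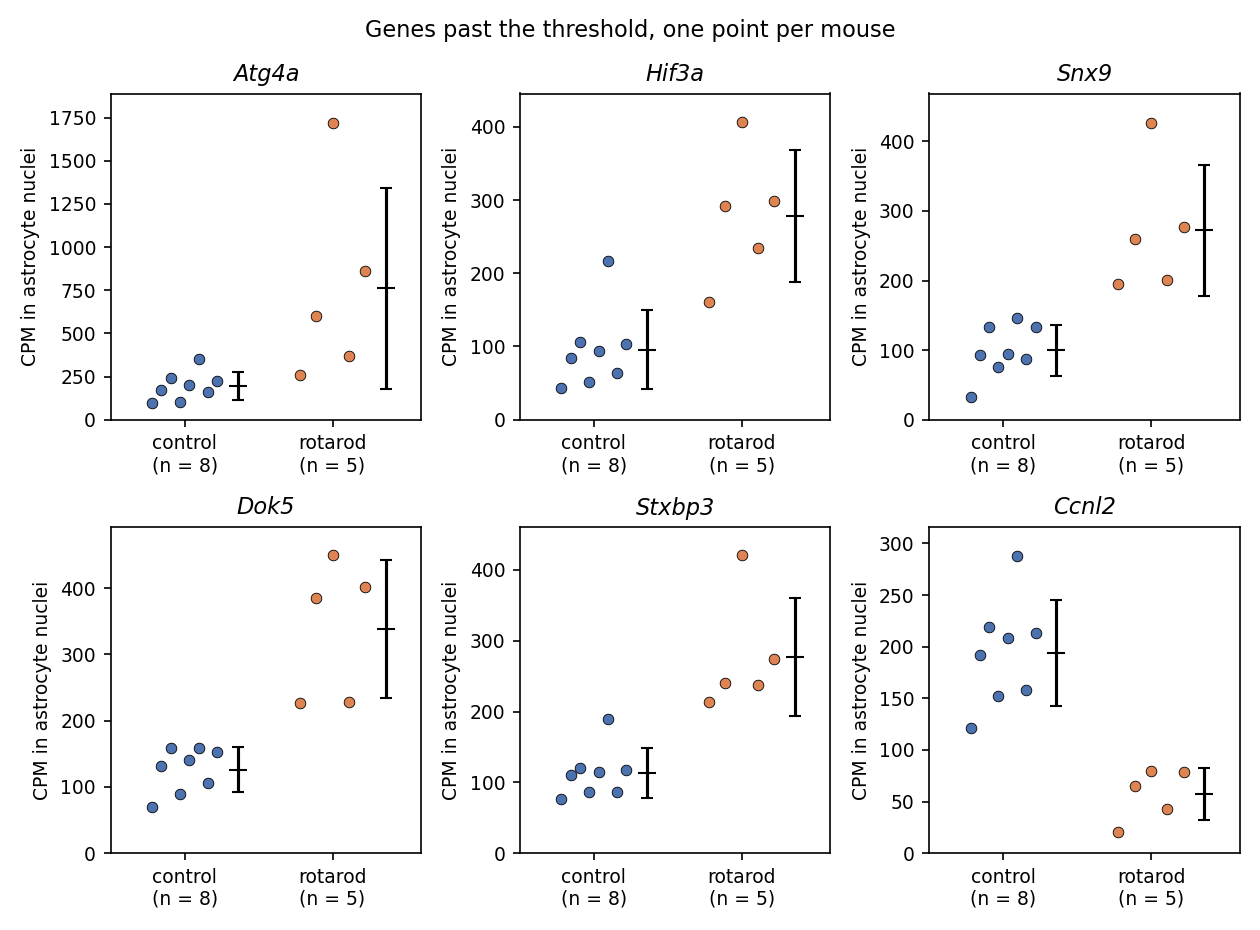
CPM of the 6 called genes in astrocyte nuclei, with 1 point per mouse for 8 control (blue) and 5 rotarod (orange) mice and the mean with SD as a bar at the side; each y axis starts at 0. Dok5, Stxbp3, Snx9 and Ccnl2 do not overlap between groups, and Hif3a and Atg4a do.

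None of the 14 genes that came next by p, predicted and Riken-only symbols aside, passed the threshold, and those reported are given as values. Upf2, a core factor of nonsense-mediated mRNA decay, was nearest (log2 fold change 1.43, adjusted p = 0.0510, edgeR). It stood from 29.5 to 285 CPM with a median of 102 CPM in the 8 control mice, and at 384, 313, 324, 218 and 201 CPM in rotarod replicates 1 to 5. It passed with DESeq2 (adjusted p = 0.0231). Atp1b2, the beta subunit of the sodium pump found in glia, stood from 127 to 569.6 CPM with a median of 269.9 CPM in the 8 control mice and at 85.4, 137, 195, 129 and 141 CPM in rotarod replicates 1 to 5 (log2 fold change -1.24, adjusted p = 0.144, edgeR). Slc6a11, the GABA transporter GAT3 of astrocytes, averaged 995 ± 226 CPM (SD, n = 5) in rotarod and 622 ± 155 CPM (SD, n = 8) in control mice (log2 fold change 0.62, adjusted p = 0.379, edgeR). Fitted log2 fold changes were 1.22 for Cables1, 0.98 for Ddo, which encodes D-aspartate oxidase, and 0.97 for Sorcs2. They were 0.92 for Eif3a, a subunit of a translation initiation factor, 0.72 for the cadherin Cdh22 and 0.67 for the chromatin remodeller Atrx. They were 0.64 for Ndst3, a heparan sulfate enzyme, -0.87 for the noncoding Snhg11, also a neuronal marker here, and -1.17 for Prune2. The adjusted p of these 9 genes ran from 0.127 to 0.388.

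Of 45 glucocorticoid-responsive genes measured, 9 were tested and 1, Hif3a, was called, against 0.45% of all genes. Their median log2 fold change was 0.16, with 5 above and 4 below 0, beside -0.015 over all genes tested. Zbtb16, a zinc finger factor of this list, averaged 222 ± 105 CPM (SD, n = 5) in rotarod and 107 ± 44.1 CPM (SD, n = 8) in control mice and did not pass (log2 fold change 0.91, adjusted p = 0.462, edgeR). Nr3c1, the glucocorticoid receptor itself, averaged 269 ± 107 CPM (SD, n = 5) in rotarod and 138 ± 35.0 CPM (SD, n = 8) in control mice (log2 fold change 0.83, adjusted p = 0.394, edgeR). Fkbp5, a chaperone induced by the receptor, was too low to test, with 4 UMIs in each group. Sgk1, a kinase induced by steroids, held 15 UMIs in control and 0 UMIs in rotarod nuclei, and 0 of 256189 UMIs allows up to 11.7 CPM. The summed level of the list ran from 3743 to 4808 CPM in control and from 4320.2 to 5379 CPM in rotarod mice.

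The hypoxia list gave 2 tested genes of 21, Hif3a and Vegfa, of which Hif3a was called, against 0.45% of all genes. Vegfa, the vascular growth factor, averaged 154 ± 100.3 CPM (SD, n = 5) in rotarod and 279 ± 107 CPM (SD, n = 8) in control mice and did not pass (log2 fold change -0.92, adjusted p = 0.414, edgeR). Of 34 autophagy and lysosome genes measured, 3 were tested and Atg4a alone was called, against 0.45% of all genes; Ambra1 and Rb1cc1 had log2 fold changes of 0.27 and -0.33. Of 22 clock genes measured, 4 were tested and none passed. Among them Rora, a nuclear receptor of the clock that is abundant in astrocytes, averaged 5386 ± 399 CPM (SD, n = 5) in rotarod and 4458 ± 772 CPM (SD, n = 8) in control mice (log2 fold change 0.25, adjusted p = 0.554, edgeR). Per1 held 12 and 2 UMIs. None of the 27 rapid activity genes could be tested: Fos and Junb were at 0 UMIs in both groups, which allows up to 4.01 CPM in control and 11.7 CPM in rotarod mice, and Egr1 and Nr4a1 held 2 and 1 UMIs in rotarod nuclei. These limits cover counting error only. The summed level of the rapid activity list ran from 31.7 to 226 CPM in control mice, with a median of 80.2 CPM from 65 UMIs. In rotarod mice it ran from 89.2 to 181 CPM, with a median of 130 CPM from 33 UMIs. Of its genes 13 were at 0 UMIs in control and 16 in rotarod nuclei, and the difference in the sum was not tested.

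The genes of astrocyte transport and coupling described here did not pass. For glutamate and GABA uptake 8 of 14 genes were tested (median log2 fold change 0.058). Slc1a2, the main glutamate transporter, averaged 2708 ± 341 CPM (SD, n = 5) in rotarod and 2591 ± 837 CPM (SD, n = 8) in control mice (log2 fold change 0.023, adjusted p = 0.968, edgeR), and its sign changed with the filter and the mice used. Slc1a3, the second glial glutamate transporter, averaged 513 ± 173 CPM (SD, n = 5) in rotarod and 382 ± 86.0 CPM (SD, n = 8) in control mice (log2 fold change 0.44, adjusted p = 0.554, edgeR). Glul, glutamine synthetase, was under the filter with 111 and 28 UMIs. For potassium, water and gap junctions 8 of 16 genes were tested (median -0.12). Aqp4, the endfoot water channel, had a log2 fold change of -0.62, the connexin Gja1 -0.62 and the potassium channel Kcnj10 0.37, with adjusted p from 0.572 to 0.725. Gpc5, a glypican, averaged 9000.1 ± 1804 CPM (SD, n = 5) in rotarod and 7864 ± 819.6 CPM (SD, n = 8) in control mice (log2 fold change 0.17, adjusted p = 0.725, edgeR). Aldh1l1, a folate enzyme that marks astrocytes, had a log2 fold change of -0.016, whose sign also changed between settings.

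Of 38 reactive astrocyte genes, Gfap, the glial filament protein, was the one tested (log2 fold change -0.21, adjusted p = 0.875, edgeR), with a mean of 169 ± 111 CPM (SD, n = 5) in rotarod and 159 ± 66.4 CPM (SD, n = 8) in control mice; the fitted value and the means differ in sign, and the fitted sign changed without rotarod replicate 4. None of 14 calcium and transmitter receptor genes tested passed (median -0.18). Nor did any of 24 adhesion and guidance genes (median -0.068), 16 developmental and regional factors (0.15), 7 lipid genes (-0.27), 6 glycogen and glycolysis genes (-0.18) or 5 matrix genes (-0.14). Of the heat shock list Hsp90ab1 was the one tested, and no cholesterol, ribosomal protein or nuclear oxidative phosphorylation gene had enough UMIs. Of 12 nuclear noncoding RNAs 8 were tested and none passed (median -0.36), and of 10 X and Y linked genes Xist was the one tested and did not pass. Names of single members outside the 38 genes fixed by rule (Nr3c1, Vegfa, Rora, Ambra1, Rb1cc1, Hsp90ab1 and Xist) were chosen after their values were seen.

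Transcripts of the mitochondrial genome, which in a nuclear preparation come from outside the nucleus, gave no called gene. All 8 tested of 12 measured had a log2 fold change above 0, with a median of 0.87, and the smallest adjusted p was 0.414. Their summed level ran from 8143 to 21797 CPM in control and from 18949 to 40582 CPM in rotarod mice, 29151 ± 9291 CPM (SD, n = 5) in rotarod and 14793 ± 5481 CPM (SD, n = 8) in control mice. Control replicates 7 and 8, at 21797 and 20654 CPM, lay above rotarod replicates 3 and 5. Leaving these genes out of the counts kept all 6 calls and added Upf2. Neuronal marker RNA in the astrocyte nuclei ran the other way: all 7 tested of 13 had a log2 fold change below 0 (median -0.53, none called), and the sum ran from 5518 to 15352 CPM in control and from 5673 to 9178 CPM in rotarod mice. Control replicates 6, 7 and 8 held the 3 highest sums, and 1 of the 13 neuronal markers was at 0 UMIs in rotarod nuclei. Ccnl2 averaged 107 CPM in neurons and 194 CPM in astrocytes of control mice, and the part of neuronal RNA in its fall was not tested. Oligodendrocyte markers ran from 1844 to 8092 CPM in control and from 2593 to 5977 CPM in rotarod mice, precursor markers from 2045 to 3187 CPM in control and from 1726 to 2689 CPM in rotarod mice, and Schwann cell markers from 2789 to 3831 CPM in control and from 2334 to 3613 CPM in rotarod mice. Endothelial or vascular markers ran from 197 to 502 CPM in control and from 227 to 1067 CPM in rotarod mice, meningeal markers from 156 to 373 CPM in control and from 227 to 426 CPM in rotarod mice, microglial markers from 0 to 239.8 CPM in control and from 39.1 to 259 CPM in rotarod mice and ependymal markers from 0 to 118 CPM in control and from 0 to 64.8 CPM in rotarod mice. Of the 9 microglial markers, 2 were at 0 UMIs in control and 3 in rotarod nuclei, and of the 6 ependymal markers 1 and 2. Astrocyte markers ran from 18130.0 to 21643 CPM in control and from 18278 to 22072 CPM in rotarod mice. The part of other cells' RNA in the called genes was not tested.

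**Figure D3:**
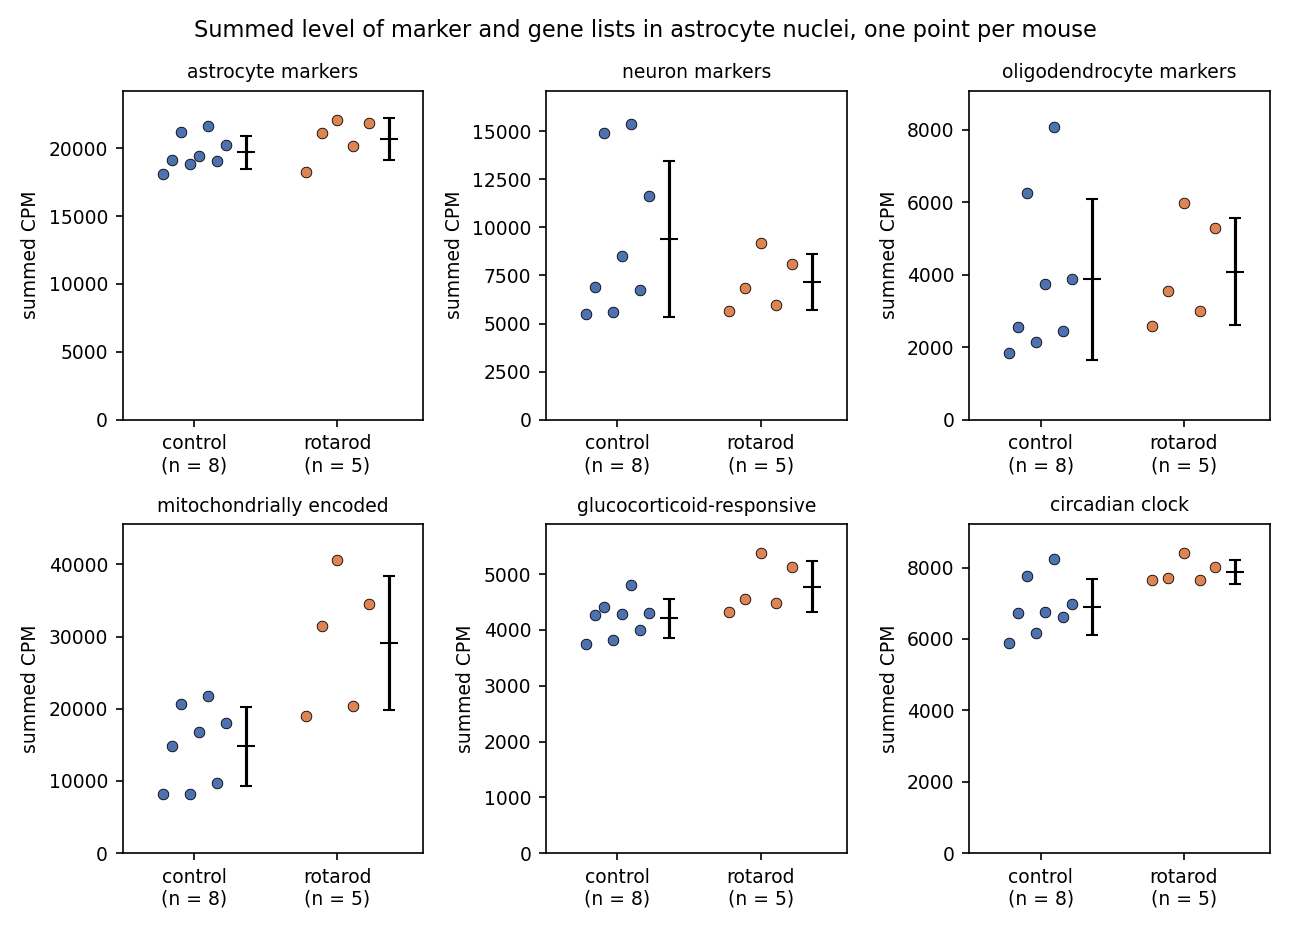
Summed CPM of 3 marker lists and 3 gene lists in astrocyte nuclei, with 1 point per mouse for 8 control (blue) and 5 rotarod (orange) mice and the mean with SD as a bar at the side; each y axis starts at 0. The groups overlap in all 6 panels, and mitochondrially encoded RNA is the list with the widest gap between means.

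The same genes were then read in the other classes, which share the libraries of these mice (SD over 5 rotarod mice and 8 control mice in oligodendrocytes, 9 in the other classes). Dok5 also rose in oligodendrocytes and in meningeal or Schwann nuclei. In oligodendrocytes it averaged 369 ± 123 CPM in rotarod against 81.2 ± 29.1 CPM in control mice (log2 fold change 2.23, SE 0.25, adjusted p = 4.02e-07, edgeR). In meningeal or Schwann nuclei it averaged 501 ± 276 CPM in rotarod against 128 ± 42.8 CPM in control mice (log2 fold change 2.01, adjusted p = 0.00400, edgeR). In neurons it averaged 295 ± 129.5 CPM in rotarod against 99.96 ± 37.7 CPM in control mice (log2 fold change 1.68, adjusted p = 0.0877, edgeR), which did not pass. In endothelial or vascular nuclei Dok5 was under the filter, at 340.3 ± 149 CPM in rotarod against 60.1 ± 46.9 CPM in control mice. Dok5 was the gene called in 3 classes: oligodendrocytes had 2 called genes of 2613 (0.0765%), meningeal or Schwann nuclei 3 of 2896 (0.104%), neurons 1 of 9374 (0.0107%) and endothelial or vascular nuclei 0 of 1543 (0%, 139 at an unadjusted p under 0.05 in edgeR). The part of free RNA in the droplets, which would reach all classes of a library, was not tested.

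Stxbp3 in oligodendrocytes averaged 492.9 ± 163 CPM in rotarod against 308 ± 101 CPM in control mice (log2 fold change 0.72, adjusted p = 0.409, edgeR). Snx9 in the same class averaged 223 ± 127 CPM in rotarod against 93.6 ± 35.9 CPM in control mice (log2 fold change 1.00, adjusted p = 0.409, edgeR). In neurons the log2 fold changes were 0.32 for Stxbp3 and 0.31 for Snx9. Atg4a averaged 761 ± 517 CPM in rotarod against 345 ± 281 CPM in control mice in oligodendrocytes (log2 fold change 1.11). In neurons it averaged 209.6 ± 138 CPM in rotarod against 107 ± 82.1 CPM in control mice (log2 fold change 0.81). Its log2 fold change was 0.77 in meningeal or Schwann and 1.06 in endothelial or vascular nuclei, and Atg4a passed in none of these classes. Rotarod replicate 3, highest in astrocytes, was also highest in oligodendrocytes, neurons and meningeal or Schwann nuclei, at 1672, 424 and 921 CPM. In endothelial or vascular nuclei rotarod replicate 1 was highest, at 475 CPM. Hif3a was nearly absent from oligodendrocytes (10.1 ± 15.1 CPM in rotarod against 4.51 ± 6.90 CPM in control mice) and neurons (2.66 ± 1.35 CPM in rotarod against 1.74 ± 2.41 CPM in control mice), and was under the filter in all 4 other classes. Ccnl2 averaged 112 ± 21.8 CPM in rotarod against 146 ± 66.1 CPM in control mice in oligodendrocytes and 74.3 ± 18.3 CPM in rotarod against 107 ± 24.8 CPM in control mice in neurons (log2 fold change -0.47, adjusted p = 0.383, edgeR). The plot of the 6 genes by class shows these levels.

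**Figure D4:**
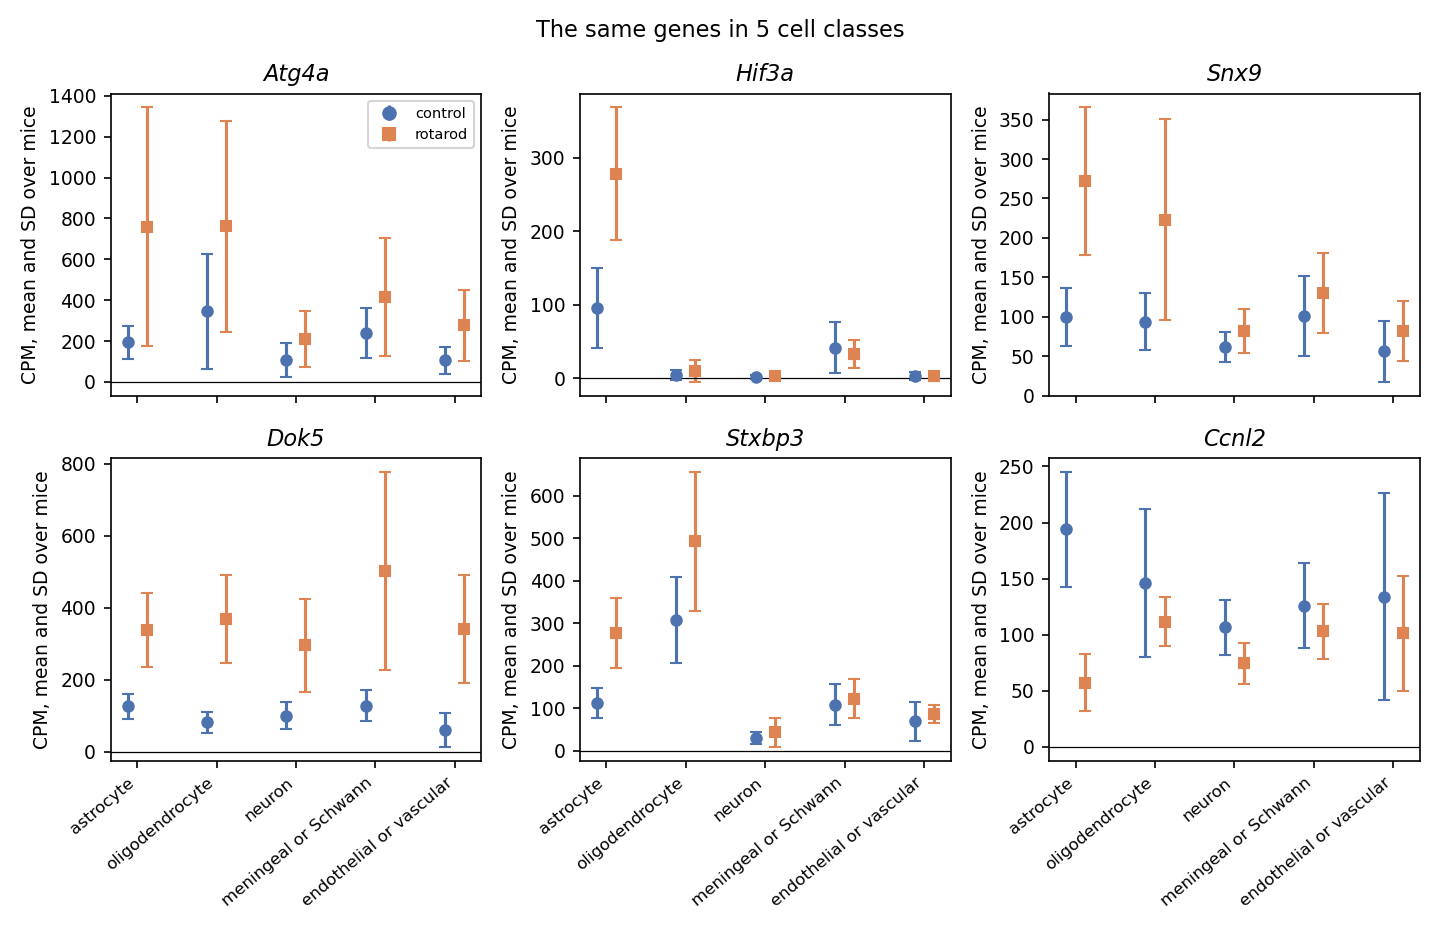
Mean CPM with SD over mice of the 6 called genes in 5 cell classes, for control (blue circles) and rotarod (orange squares) mice; a bar that crosses 0 is an SD larger than the mean. The rotarod means of Dok5, Stxbp3, Snx9 and Atg4a are above the control means in each of the 5 classes, and that of Ccnl2 is below in each. Hif3a is high in astrocytes and lower in the other 4.

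The difference in the rotarod effect between astrocytes and other classes was tested itself, as an interaction of class and group with the mouse as a block. Against oligodendrocytes 0 of 2712 genes passed in edgeR (0%), with 135 at an unadjusted p under 0.05 and a smallest adjusted p of 0.642. Against neurons 0 of 5259 passed in edgeR (0%), with 351 at an unadjusted p under 0.05 and a smallest adjusted p of 0.264; with DESeq2's size factors that p was 0.0534, also with 0 called. For Ccnl2 the astrocyte effect minus that of neurons was -1.18 on the log2 scale (SE 0.43, adjusted p = 0.615, edgeR). For Dok5 the astrocyte effect minus that of oligodendrocytes was -0.96 (SE 0.34, adjusted p = 0.909, edgeR). For Upf2 the value against neurons was 1.15 (SE 0.33, adjusted p = 0.530, edgeR). None of the 6 genes was thus shown to respond otherwise in astrocytes than in these 2 classes.

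Formalin samples give a second stimulus, set against the same 8 control mice in 1 fit over all 3 groups. The 10 formalin samples may hold pairs from 1 animal, while their SD and p-values take each sample as separate. In their astrocytes 0 of 1804 genes passed in edgeR (0%), with 82 at an unadjusted p under 0.05. Hif3a was nearest of the 6 genes, at 231 ± 50.3 CPM (SD, n = 10), with all 10 samples above the control median (log2 fold change 1.13, adjusted p = 0.0685, edgeR). Dok5 spread from 47.8 to 719 CPM over the 10 formalin samples (log2 fold change 1.05, adjusted p = 0.861, edgeR). Atg4a had a fitted value on the other side of 0 (log2 fold change -0.87, adjusted p = 0.934, edgeR), as had Stxbp3 (log2 fold change -0.16, adjusted p = 0.976) and Snx9 (log2 fold change -0.45, adjusted p = 0.934). Ccnl2 had a positive one (log2 fold change 0.22, adjusted p = 0.936, edgeR). Zbtb16 stood at 249.8 ± 142 CPM (log2 fold change 1.06, adjusted p = 0.438, edgeR). The 2 comparisons share their controls, and the difference between the stimuli was not tested.

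Leaving out each of the 13 mice in turn kept the sign of all 6 genes wherever they were tested. Dok5 passed in 10 and Stxbp3 in 9 of the 13 fits, and Hif3a, Atg4a and Snx9 in 6 each. Ccnl2 passed in 5 of the 10 fits whose filter it cleared. No gene passed without control replicate 1 (104 at an unadjusted p under 0.05 in edgeR) or without control replicate 3 (103).

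**Figure D5:**
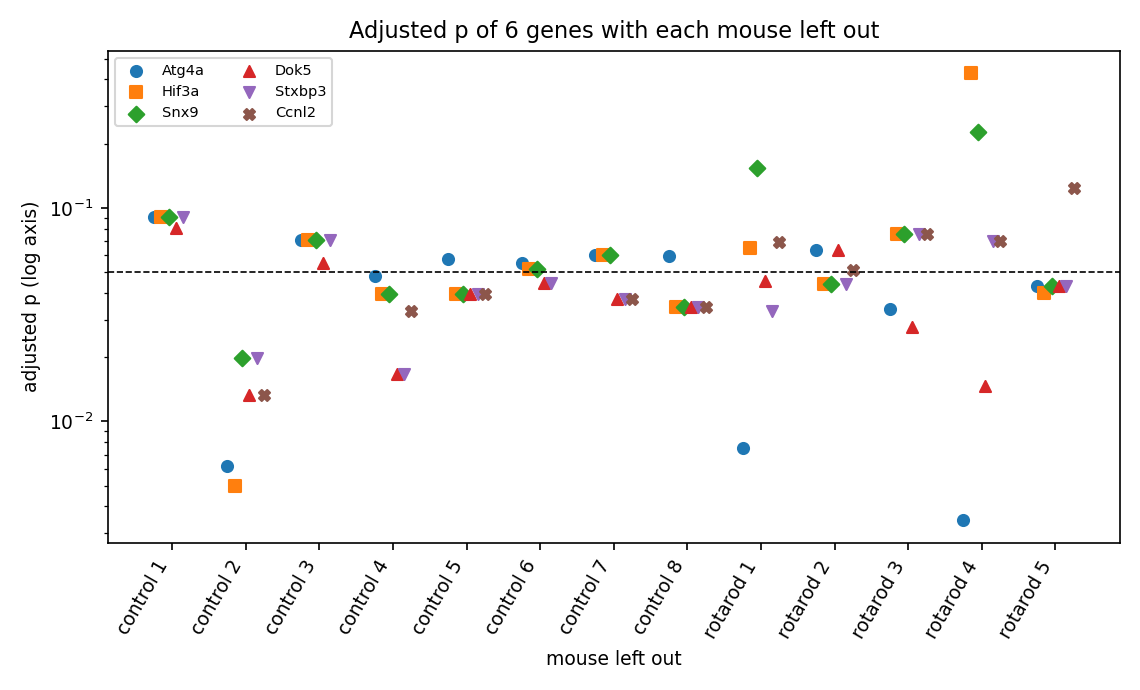
Adjusted p of the 6 called genes (log axis) in edgeR fits that each leave out the mouse named on the x axis; the dashed line is the threshold of 0.05. All genes tested lie above the line without control replicate 1 and without control replicate 3, and the highest value is that of Hif3a without rotarod replicate 4.

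Astrocytes made up 8.87 ± 4.72% (SD, n = 9) of the labelled nuclei in control and 6.98 ± 2.26% (SD, n = 5) in rotarod mice, a difference of -1.89 percentage points (two-sided exact permutation p = 0.417; the smallest the design allows is 0.000999). Without the 3 controls titled with a final cx the difference was -4.45 points (exact permutation p = 0.0346). Those 3 mice stood at 0.988%, 3.90% and 6.34%, among the 4 lowest control shares. The median UMIs per astrocyte nucleus averaged 1473 ± 644 (SD, n = 8) in control and 1242 ± 744 (SD, n = 5) in rotarod mice (exact permutation p = 0.559; the smallest the design allows is 0.00155). A share of nuclei depends on which nuclei survive isolation and pass the authors' classing, and does not count cells in the cord.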

How the data were processed

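Nuclei of the lumbar cord were sequenced by Drop-seq, and the authors deposited raw UMI counts per gene and barcode with a table of cell classes. Build mm10 (GRCm38) is named in the submitters' processing notes. For the aligner, intronic reads and strand, nothing is stated: not given in the sources used here. No count was normalized before deposit, as whole numbers that sum to 640279 to 3243587 UMIs per control and rotarod library show. Each library held 750 barcodes. Doublets were not called again.

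UMIs of astrocyte nuclei were summed per mouse, for mice with at least 10 such nuclei. Genes were filtered with filterByExpr, scaled by TMM and tested with edgeR 4.0.16 (R 4.3.3, quasi-likelihood, robust), with Benjamini-Hochberg adjustment at 0.05 over the 1332 genes tested, which held 67.4% of the UMIs. Log2 fold changes are edgeR's, and CPM divides by the unscaled sum. The SE beside them was derived, as the absolute log2 fold change divided by the square root of the F statistic of edgeR's test. Class differences were tested as interactions with the mouse as a block, and single values per mouse by exact permutation. The fitting script was tested on simulated data. DESeq2 1.42.0, other scalings, filters and groups, nuclei thinned to equal UMIs, and leaving out each mouse were tried as alternatives; 6 alternatives were chosen after seeing the data: leaving out 1 nucleus, mitochondrially encoded genes or nuclei under 500 UMIs, a filter on the mean over all mice, and the mice that share title numbers, with and without that number as a block.

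The genes named were the 20 with the smallest p, leaving out predicted and Riken-only symbols. To these were added the called members of each list and a set of astrocyte, steroid and activity genes. Some of these genes are not reported here. The members and lists were chosen with earlier results of these data known. Gene positions are those of GENCODE on GRCm38, and promoter sequences those of RefSeq on GRCm38.p6, which matched 28 of the 38 named genes. Shares of nuclei rest on 296 to 718 labelled nuclei per library.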

Additional observations from a re-analysis of the deposited data

Results flagged for a closer look

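Of 60 groups of samples examined, 8 held a mouse far from the others of its group, and chance flags about 1 in 20 groups. Stxbp3 had 1 such mouse in each group: control replicate 4 stood at 190.1 CPM, with the next control mouse at 119.9 CPM, and rotarod replicate 3 at 421 CPM, with the next at 274 CPM. Hif3a stood at 216 CPM in control replicate 2, with the next control mouse at 107 CPM. Control replicate 4, with 38 nuclei and the fewest astrocyte UMIs of the control mice, was also high in Upf2, at 285 CPM against 139 CPM in the next mouse, and in Ddo, at 507 CPM against 280.3 CPM. Rotarod replicate 3, the mouse with the highest Atg4a, was also high in Atrx, at 1459 CPM against 919 CPM in the next mouse. It was high in Sorcs2, at 616 CPM against 213 CPM, and in Slc1a2, at 3307 CPM against 2659 CPM.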

How the results depend on the processing

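Titles of 6 control mice end in a number after a letter (1 and 4 occur in 2 titles each), and nothing says that these pair with the rotarod numbers. With the title number as a replicate block over the 10 mice that share numbers, 8 of 1411 genes passed, Hif3a and Snx9 among them, against 1 without the block in the same mice. The deviations of same-numbered mice correlated between -0.068 and 0.047, and none of the 4 numbers matched its own best. The count of 6 called genes became 2 of 18361 with no filter on low counts, where the median log2 fold change of all genes moved to -0.34. It became 0 of 318 with nuclei thinned to 500 UMIs, which also left out 37 control and 23 rotarod nuclei under that depth (33 at an unadjusted p under 0.05 in edgeR), and there none of the 6 genes had enough UMIs to test. Leaving those nuclei out without thinning gave 6, with Upf2 in place of Snx9. It ranged from 0 to 7 when each mouse was left out. DESeq2, DESeq2's size factors in edgeR, TMMwsp scaling and leaving out mitochondrially encoded genes each gave 7, all 6 and Upf2. The astrocyte share differed by -4.45 points (exact permutation p = 0.0346) without the controls titled with a final cx, and the difference in UMIs per nucleus turned to 16.6 (exact permutation p = 0.961). The count of genes whose rotarod effect differed between astrocytes and oligodendrocytes ranged from 0 to 1 over mice left out (6330411D24Rik without rotarod replicate 4, adjusted p = 0.0170, edgeR). Between astrocytes and neurons it ranged from 0 to 3, with 4930432E11Rik without control replicate 2 (adjusted p = 0.0407, edgeR), Tmem163 without rotarod replicate 4 (0.0482), and 3 genes led by Hba-a1 without rotarod replicate 5 (2.51e-05). Slc1a2 changed sign to -0.17 with no filter and -0.031 without the cx mice, and ranged from -0.058 to 0.13 over mice left out (below 0 without control replicates 4, 6 or 8 or rotarod replicate 3). Gfap ranged from -0.60 to 0.063 over mice left out (above 0 without rotarod replicate 4). Aldh1l1 turned to 0.016 with all 3 groups, 0.0092 without nuclei under 500 UMIs and 0.0024 without the nucleus richest in Atg4a, and ranged from -0.15 to 0.19 over mice left out (above 0 without control replicates 4, 5 or 6 or rotarod replicates 2 or 3). Of the other values of single genes under alternatives, 670 kept their direction and side of the threshold, 54 lost significance and 13 gained it. All 54 losses were in the 6 called genes, the only ones that could lose it. Where tested, Dok5 and Stxbp3 kept the call in 19 of 26 alternatives each and Hif3a in 16 of 26. Atg4a and Snx9 kept it in 15 of 26 each and Ccnl2 in 14 of 22. The cause was not tested. Depth limits the reach: 1332 of 18361 genes with a UMI were tested.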

Other observations

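Among developmental factors, Tcf7l2, a transcription factor of the Wnt pathway, averaged 277 ± 108 CPM (SD, n = 5) in rotarod and 151 ± 46.0 CPM (SD, n = 8) in control astrocytes (log2 fold change 0.72, adjusted p = 0.489, edgeR). Of the 16 such factors tested, 12 had a log2 fold change above 0 and 4 below, and none passed. Agt, angiotensinogen, which astrocytes make in the nervous system, averaged 360.1 ± 154 CPM (SD, n = 5) in rotarod and 223 ± 91.6 CPM (SD, n = 8) in control astrocytes (log2 fold change 0.72, adjusted p = 0.524, edgeR). These genes were chosen after their values were seen.

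Haemoglobin RNA in astrocyte nuclei came mostly from 1 mouse. Rotarod replicate 4 held 137 of 141 rotarod UMIs of Hba-a1 and 25 of 27 of Hbb-bt, while the 8 control mice together held 21 and 7.

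In the other classes, the call in neurons was Ibtk, an inhibitor of Bruton's tyrosine kinase (log2 fold change 1.37, SE 0.18, adjusted p = 0.000105, edgeR). Besides Dok5, the calls were Cmss1 in oligodendrocytes (log2 fold change 1.69, adjusted p = 0.0236, edgeR) and, in meningeal or Schwann nuclei, Gm13341 (3.06, adjusted p = 0.00400) and the mitochondrial mt-Nd6 (1.67, adjusted p = 0.00738).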
